A study of Homo sapiens with 6 samples.

Results

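The HOX cluster genes were followed in HCT116, a human colorectal cancer cell line kept in culture, after knockdown of the nuclear RNA-binding protein Matrin3. Members were all genes named HOX with a cluster letter, A to D, and a number, which gave 39 of the 56632 genes in the tables. There were 11 members in the HOXA cluster on chromosome 7, 10 in HOXB on chromosome 17, 9 in HOXC on chromosome 12 and 9 in HOXD on chromosome 2. Poly(A) RNA was sequenced from 3 siMatrin3 libraries, made from cells that received a pool of small interfering RNAs (siRNAs) against Matrin3, and from 3 siCTRL libraries, made from cells that received a negative control siRNA. Both groups were transfected in 2 rounds 72 hours apart. The sources differ on the harvest: the labels give a further 48 hours after the second round, whereas the study's methods place reseeding at 48 hours and RNA purification at 3 days after it. The study describes the libraries as biological triplicates of a single cell line, and the pool was not split into its siRNAs, so neither another line nor a single siRNA was compared.

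HOX genes encode transcription factors that bind DNA through a homeodomain and give cells of the embryo their position along the head-to-tail axis. They lie in clusters in which order along the chromosome follows order of use, with low-numbered genes at the 3′ end acting in anterior tissue and high-numbered genes at the 5′ end acting in posterior tissue, limbs and the urogenital tract. Genes of the same number in different clusters are paralogues that arose when the ancestral cluster was copied. The adult gut and its tumours keep regional HOX programmes, Polycomb complexes hold silent HOX genes in a repressed state, Trithorax and MLL complexes keep active ones on, and TALE proteins (PBX, MEIS and PKNOX) bind DNA together with HOX proteins.

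The paralogues resemble each other in the homeobox, the stretch of 180 bases that encodes the 60 residues of the homeodomain, and this bears on whether reads of paralogues could be told apart. The lines below show bases 121 to 180, which encode the last 20 residues with the DNA recognition helix, for HOXA10, HOXB9 and HOXD8, which fell after knockdown, and for HOXC9, a paralogue of HOXB9 that did not pass the test. Each is written 5′ to 3′, with capitals for the bases that differ from HOXC9, from the canonical transcripts of GENCODE release 44.
HOXA10: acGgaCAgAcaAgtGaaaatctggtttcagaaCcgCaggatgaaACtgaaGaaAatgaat
HOXB9: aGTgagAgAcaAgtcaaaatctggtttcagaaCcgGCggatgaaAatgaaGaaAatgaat
HOXC9: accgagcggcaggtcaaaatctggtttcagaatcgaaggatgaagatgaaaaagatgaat
HOXD8: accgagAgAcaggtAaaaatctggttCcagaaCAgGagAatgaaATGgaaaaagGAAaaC
Over the whole homeobox HOXB9 was identical to HOXC9 at 82.2% of bases, HOXA9 at 81.7%, HOXA10 at 75.6%, HOXA3 at 63.3% and HOXD8 at 61.1%. Runs of identical bases were also sought in all 741 pairs of members, whether or not they lay at the same position in both homeoboxes. The longest run was 51 bases, the median longest run was 14, and 3 pairs reached at least 50. A homeobox was found in all 39 members.

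The libraries held 43119176 to 54185650 expected counts in siMatrin3 and 40808173 to 52922637 in siCTRL. MATR3, the targeted gene, had 95.2, 112.05 and 110.7 TPM (transcript abundance per length, scaled to the same total in each library) in siMatrin3 libraries, against 186.4, 180.2 and 176.5 TPM in siCTRL libraries, and fell by 0.93 on the log2 scale (SE 0.065, edgeR quasi-likelihood adjusted p = 7.67e-05). The epithelial marker EPCAM averaged 243 ± 7.10 TPM in siMatrin3 and 240.4 ± 4.20 TPM in siCTRL (SD, n = 3 each). Of the 7 epithelial and colorectal markers tested with edgeR, 0 were called higher (0 also at an unadjusted p under 0.05 and in DESeq2) and 1 was called lower. That marker was the keratin KRT18, with 856.4, 909.6 and 924.7 TPM in siMatrin3 libraries, against 973.9, 1017 and 1030 TPM in siCTRL libraries (−0.15 on the log2 scale, SE 0.038, edgeR adjusted p = 0.033, and adjusted p = 0.0569 with an offset for each gene's transcript length in each library, called the length offset here). Its partner KRT8 was at −0.11 on the log2 scale (edgeR adjusted p = 0.175). The median log2 fold change of the 7 was 0.03, their list summed to 2691 to 2917 TPM in siMatrin3 and 2947 to 3097 TPM in siCTRL, and the part of this in the HOX results was not tested. The intestinal markers VIL1 and CDX1 were at or under 0.47 TPM in every library. CDX2, the caudal-type factor of the intestinal lineage, was present at 8.36 ± 0.231 TPM in siMatrin3 and 8.09 ± 0.704 TPM in siCTRL. PTPRC of the leukocyte list and COL1A2 and DCN of the fibroblast list were at 0 in all 6 libraries. Other members of these lists were detected. The fibroblast list of 5 genes summed to 14.95 to 19.11 TPM in siMatrin3 and 13.69 to 16.17 TPM in siCTRL. The leukocyte list of 4 genes summed to 0.45 to 0.91 TPM in siMatrin3 and 0.57 to 0.66 TPM in siCTRL.

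The first question was which HOX genes HCT116 cells express without knockdown, by cluster and by position. HOX transcripts were dominated by the middle and 5′ part of the HOXA cluster. In siCTRL libraries 9 members averaged at least 5 TPM, 12 lay between 1 and 5 TPM and 18 lay under 1 TPM. Their summed level was 170.8, 174.9 and 180.3 TPM, which corresponded to 0.0226% to 0.0236% of all expected counts. The HOXA cluster gave 117.6 ± 1.85 TPM of this, HOXB 37.2 ± 1.76 TPM, HOXC 14.02 ± 2.23 TPM and HOXD 6.52 ± 0.864 TPM (SD, n = 3).

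HOXA9, which is known for its overexpression in leukaemias with MLL rearrangements, stood first with 64.6 ± 0.511 TPM in siCTRL, 36.8% of all HOX transcripts. HOXA10, an Abdominal-B-type gene needed for uterine development, was next with 21.7 ± 0.248 TPM, 12.4% of HOX transcripts. HOXB9 followed at 11.8 ± 0.21 TPM and HOXA7 at 10.1 ± 0.0929 TPM, and the libraries of none of these 4 genes overlapped with those of the next in order. HOXC9 and HOXB6 came at 6.94 ± 1.13 and 6.93 ± 0.541 TPM with overlapping libraries and a difference well within their spread. HOXA11 at 5.63 ± 0.0814 TPM, HOXD8 at 5.35 ± 0.919 TPM and HOXA5 at 5.05 ± 0.659 TPM also overlapped in order, so their ranks were not separated.

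Those between 1 and 5 TPM in siCTRL included, from high to low, HOXB5, HOXB7, HOXA6, HOXB8, HOXB13, HOXA3, HOXB3, HOXA13, HOXC6, HOXC13 and HOXC10, with means of 4.19 TPM for HOXB5 and 1.56 TPM for HOXC10. HOXA13 and HOXB13 lie at the posterior end of their clusters and are known for the limb tips and genital tract and for the prostate and hindgut, and HOXC13 is known for hair follicles. Among neighbours in this order only HOXB13 and HOXA3 had libraries that did not overlap. Of the 18 members under 1 TPM, HOXA4, HOXC4, HOXD4 and HOXB4 had means of 0.56 to 0.82 TPM and the remaining 14 had means of at most 0.38 TPM.

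The clusters differed in how far their expression reached along the chromosome. In HOXD only HOXD8 passed 1 TPM, and HOXD9 to HOXD13 each had at most 0.09 TPM in any library. In HOXA the level was highest at paralogue 9, with 2.27 ± 0.292 TPM at HOXA13 in siCTRL, and HOXA2 and HOXA4 were under 1 TPM. HOXB had a similar low end, since HOXB1 had 0 counts in all 6 libraries, which allows up to 0.0735 CPM (counts scaled to library size, here 3 counts of the smallest library), and HOXB2 averaged 0.24 ± 0.159 TPM in siMatrin3 and 0.213 ± 0.0416 TPM in siCTRL. Paralogue group 9 was the most abundant group, with 71.8 ± 3.84 TPM in siMatrin3 and 83.3 ± 1.69 TPM in siCTRL over its 4 genes.

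**Figure D1:**
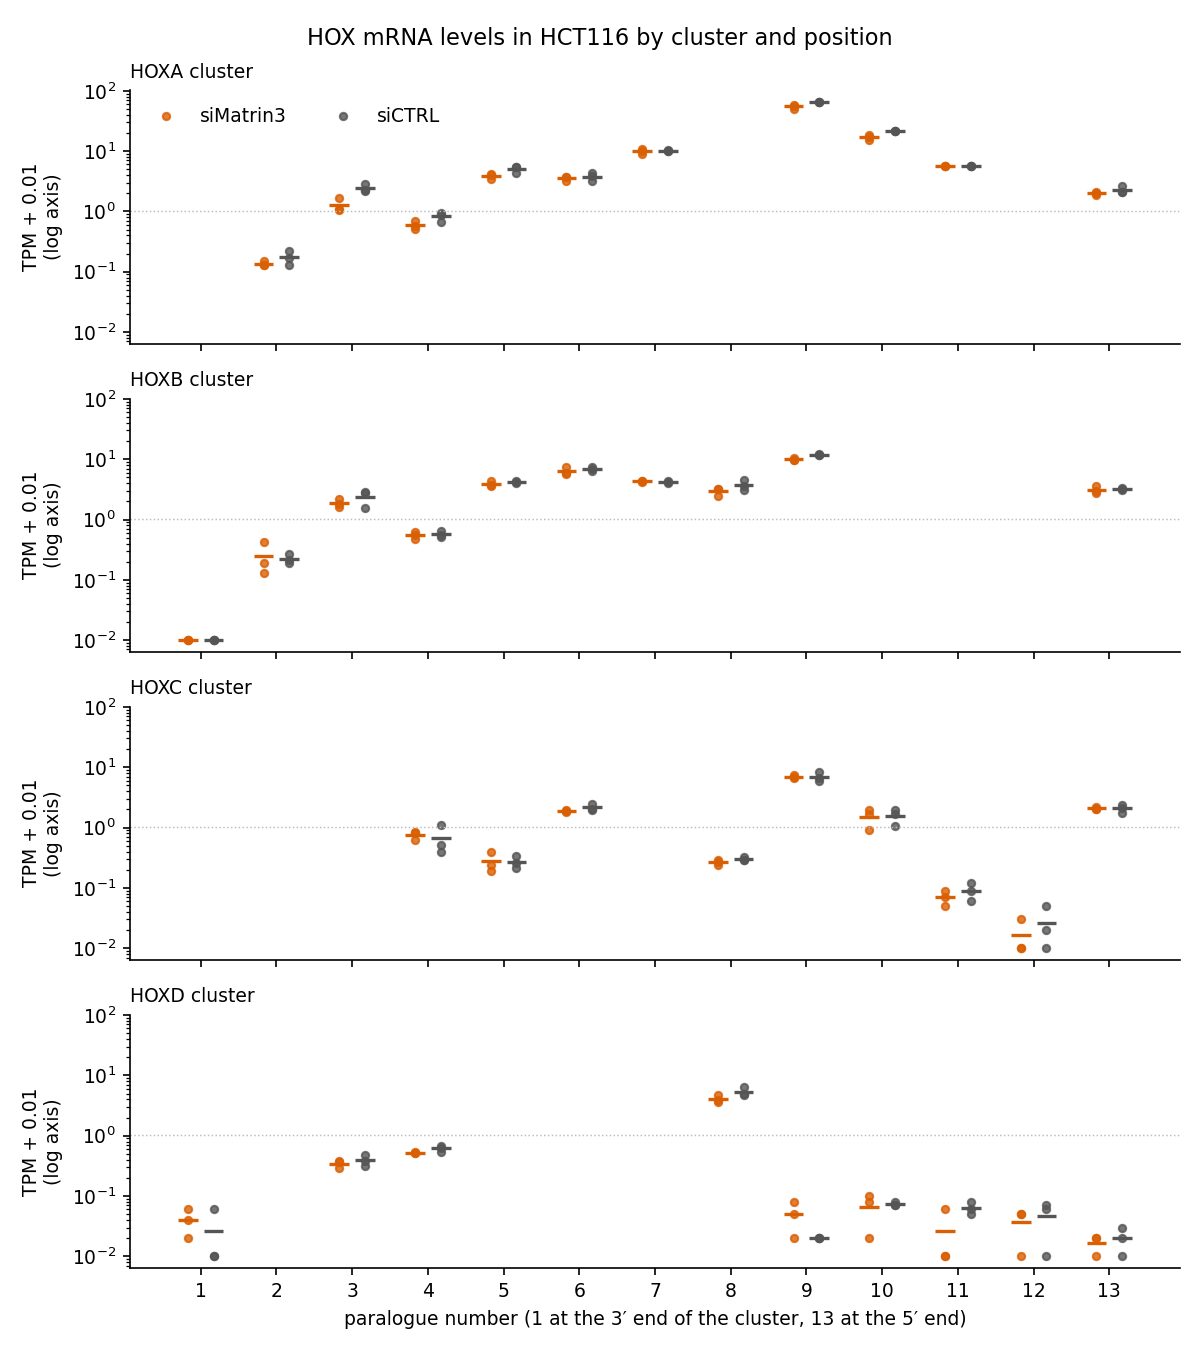
Level of the HOX genes (TPM + 0.01, log axis) by paralogue number for the 4 clusters, with a point per library, a bar at the mean, siMatrin3 left of siCTRL and a dotted line at 1 TPM. Positions without points hold no gene or are not shown. HOXA9 stands highest at 54.9 TPM in siMatrin3 and 64.6 TPM in siCTRL, and in HOXD only HOXD8 is above the line.

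The second question was whether Matrin3 knockdown changed HOX mRNA levels. After the filter on low counts 29 members could be tested, and the 10 that could not (HOXA2, HOXB1, HOXC11, HOXC12, HOXD1 and HOXD9 to HOXD13) had at most 0.21 TPM in any library. With edgeR's quasi-likelihood test on expected counts and a Benjamini-Hochberg adjusted p under 0.05 over all 16786 genes tested, 5 members fell (HOXA3, HOXA9, HOXA10, HOXB9 and HOXD8) and 0 rose. Over all genes tested, 5.97% were called lower and 5.05% higher. DESeq2 also called 5 members lower, the same 5, and 0 higher, beside 5.68% of all genes with an adjusted p called lower by that tool. At an unadjusted p under 0.05, edgeR counted 8 members lower (HOXA4 and HOXB6 among them) and 0 higher, where 13.1% of all genes tested were lower and 26% were past it in either direction.

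Most of the changes were small, though not that of HOXA3, and most of the tested members lay on the same side of zero. The log2 fold change was negative in 25 of 29 members, against 50.3% of all genes tested, and its median was −0.18 for the members and −0.00106 for all genes. The range over members was −0.89 for HOXA3 to 0.36 for HOXC4, with a median SE of 0.13. Libraries of the groups did not overlap in TPM for 8 members, all lower in siMatrin3 (HOXA3, HOXA5, HOXA9, HOXA10, HOXA13, HOXB9, HOXC6 and HOXD8), and for 0 members higher. This kind of separation held for 15.2% of all genes tested in the lower direction and 9.99% in the higher one. In bulk RNA, fewer cells expressing a gene and less RNA per cell cannot be told apart.

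**Figure D2:**
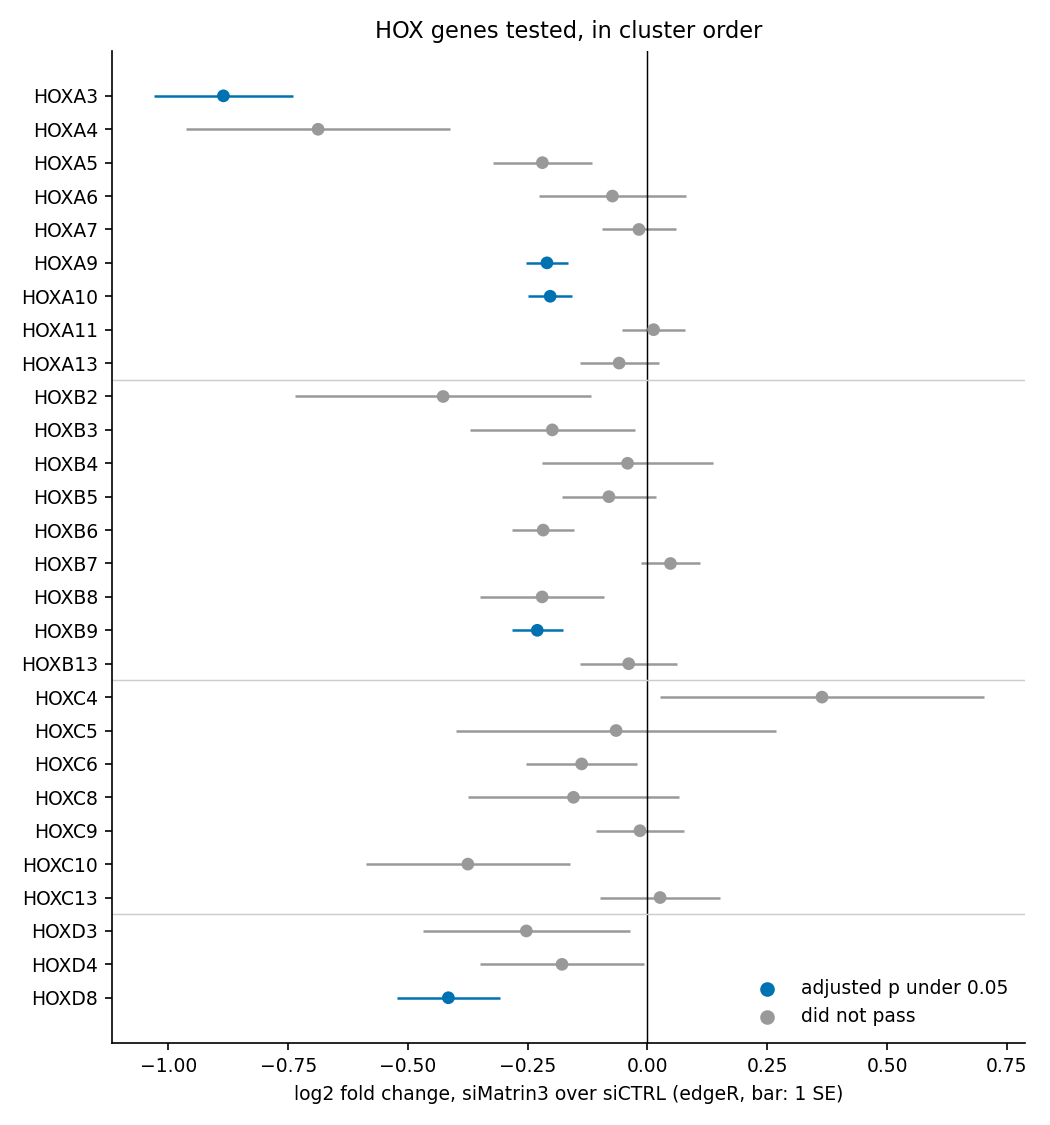
Log2 fold change of HOX genes tested, siMatrin3 over siCTRL, in cluster order from HOXA at the top, with bars of 1 SE from edgeR and the genes past an adjusted p of 0.05 in blue. The 5 blue genes lie at −0.89 (HOXA3), −0.21 (HOXA9), −0.20 (HOXA10), −0.23 (HOXB9) and −0.42 (HOXD8), and most of the other points also lie left of zero.

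HOXA3 (ENSG00000105997), which in mice is needed for the thymus, the parathyroids and other pharyngeal organs, had the largest fall of the members tested. It had 1.08, 1.03 and 1.69 TPM in siMatrin3 libraries, against 2.18, 2.25 and 2.80 TPM in siCTRL libraries. Every siMatrin3 library was below every siCTRL library, and replicate 3 was the highest of its group in both. The counts showed the same separation, with 1.67, 1.42 and 1.56 CPM in siMatrin3 and 2.59, 2.87 and 3.15 in siCTRL. HOXA3 fell by 0.89 on the log2 scale (SE 0.145, edgeR quasi-likelihood adjusted p = 0.00487). Leaving out any 1 library kept the call. In the annotation the exons of HOXA3 overlap those of HOXA-AS2 and HOXA-AS3 on the opposite strand, and the strand setting of the counting is not given in the sources used here. On the same strand they overlap the noncoding gene models ENSG00000272801 and ENSG00000273433. Neither was among the genes counted, so their reads cannot be told from those of HOXA3. The transcript length of HOXA3, weighted by abundance, varied over 1306 to 2044 bases in siMatrin3 and 1562 to 1762 bases in siCTRL.

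HOXA9 (ENSG00000078399), the leading HOX transcript of these cells, had 50.3, 58.3 and 55.97 TPM in siMatrin3 libraries, against 64.1, 64.4 and 65.1 TPM in siCTRL libraries. The siCTRL libraries lay close together, and the siMatrin3 libraries were all lower and more widely spread, with replicate 1 the lowest. HOXA9 fell by 0.21 on the log2 scale (SE 0.043, edgeR quasi-likelihood adjusted p = 0.014). Without siCTRL replicate 3 the adjusted p was 0.0658, and leaving out any other single library kept the call.

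HOXA10 (ENSG00000253293), next to HOXA9 on its 5′ side, had 15.5, 18.5 and 16.97 TPM in siMatrin3 libraries, against 21.4, 21.9 and 21.8 TPM in siCTRL libraries. As for HOXA9, siMatrin3 replicate 1 was the lowest library and the groups did not overlap. HOXA10 fell by 0.20 on the log2 scale in the test on counts (SE 0.046, edgeR quasi-likelihood adjusted p = 0.0208). With the transcript length of each library as an offset the fall was 0.34 (adjusted p = 0.0252). The call was lost without siCTRL replicate 1 (adjusted p = 0.0518), siCTRL replicate 3 (0.0792), siMatrin3 replicate 1 (0.0624) or siMatrin3 replicate 3 (0.0803). HOXA9 and HOXA10 both share exons with another gene model (ENSG00000257184) on their strand, so some of their reads could not be assigned with certainty.

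The rest of the HOXA cluster did not pass the test, and its members differed in size of change. HOXA5, a gene of lung and gut development, had 3.42, 4.02 and 4.11 TPM in siMatrin3 libraries and 5.47, 4.29 and 5.39 TPM in siCTRL libraries, with no overlap, yet an edgeR adjusted p of 0.214. HOXA7, a trunk gene, had 8.98, 9.99 and 10.8 TPM in siMatrin3 and 10.04, 10.09 and 10.2 TPM in siCTRL. HOXA11, a gene of the forearm, kidney and uterus, had 5.58, 5.66 and 5.58 TPM in siMatrin3 and 5.72, 5.57 and 5.59 TPM in siCTRL. The difference for HOXA7 and HOXA11 was within the spread of the libraries, with log2 fold changes of −0.02 (SE 0.077) and 0.01 (SE 0.066).

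Nearer the 3′ end, HOXA4 averaged 0.587 ± 0.0929 TPM in siMatrin3 and 0.82 ± 0.137 TPM in siCTRL (−0.69 on the log2 scale with an SE of 0.276, adjusted p = 0.144 by edgeR). HOXA6, and HOXA13 at the posterior end of the cluster, had log2 fold changes of −0.07 and −0.06. In all, 3 of the 10 HOXA genes tested fell, 9 had a negative log2 fold change, and the median was −0.21. Over all genes tested, 5.97% were called lower and 50.3% had a negative log2 fold change.

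In HOXB, HOXB9 (ENSG00000170689), a posterior trunk gene that in mice patterns the ribs with its paralogues, had 10.51, 9.60 and 9.68 TPM in siMatrin3 libraries, against 11.98, 11.6 and 11.9 TPM in siCTRL libraries. The groups did not overlap and both were tight. HOXB9 fell by 0.23 on the log2 scale (SE 0.054, edgeR quasi-likelihood adjusted p = 0.0224). It was the only called member whose exons overlap no other annotated gene. The call was lost without siCTRL replicate 1 (adjusted p = 0.0615), siCTRL replicate 3 (0.0836), siMatrin3 replicate 2 (0.0824) or siMatrin3 replicate 3 (0.107).

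HOXB6, a trunk gene that is also known from blood progenitors, had the smallest adjusted p of the HOXB genes that did not pass. It had 5.86, 7.42 and 5.68 TPM in siMatrin3 libraries and 6.44, 7.51 and 6.84 TPM in siCTRL libraries, which overlap, while its counts did not, at 11.3 to 11.5 CPM in siMatrin3 and 12.8 to 14.04 CPM in siCTRL. The log2 fold change was −0.22 with an SE of 0.065 (adjusted p = 0.057 by edgeR), and it passed under upper quartile scaling (adjusted p = 0.0485). Exons of HOXB3 overlap those of HOXB6 and HOXB4 on the same strand, so the division of counts among these genes is uncertain.

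The other tested HOXB genes (HOXB2, HOXB3, HOXB4, HOXB5, HOXB7, HOXB8 and HOXB13) had log2 fold changes of −0.43 for HOXB2 to 0.05 for HOXB7, none with an edgeR adjusted p under 0.324. HOXB7 averaged 4.26 ± 0.0819 TPM in siMatrin3 and 4.18 ± 0.187 TPM in siCTRL, a positive value that lay within the spread. In all, 1 of 9 HOXB genes fell, 8 had a negative log2 fold change, and the median was −0.20. The shares over all genes tested were 5.97% called lower and 50.3% negative.

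No member of HOXC was called by edgeR or DESeq2, and none had an unadjusted p under 0.05 in edgeR. HOXC9 (ENSG00000180806), which in the thoracic spinal cord shapes motor neuron types, had 6.64, 6.85 and 7.51 TPM in siMatrin3 libraries, against 6.63, 6 and 8.2 TPM in siCTRL libraries. The groups overlapped fully, and siCTRL replicate 3 was the highest of all. The log2 fold change was −0.02 with an SE of 0.091 (adjusted p = 0.939 by edgeR). HOXC4 had the highest log2 fold change of any member, 0.36 (SE 0.337, edgeR adjusted p = 0.545), but its siCTRL libraries ran over 0.39, 0.51 and 1.09 TPM and its siMatrin3 libraries, at 0.82, 0.61 and 0.80 TPM, lay inside that range. HOXC5, HOXC6, HOXC8, HOXC10 and HOXC13 did not pass either, with log2 fold changes of −0.37 for HOXC10 to 0.03 for HOXC13. HOXC4, HOXC6 and HOXC9 share exons on the same strand. The cluster total was 13.8 ± 0.845 TPM in siMatrin3 and 14.02 ± 2.23 TPM in siCTRL (SD, n = 3), and 5 of the 7 tested genes had a negative log2 fold change with a median of −0.07. Whether HOXC differed from the other clusters was not tested.

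In HOXD, HOXD8 (ENSG00000175879), a gene of the central trunk, had 3.57, 3.88 and 4.69 TPM in siMatrin3 libraries, against 4.86, 6.41 and 4.78 TPM in siCTRL libraries. The highest siMatrin3 library came close to the lowest siCTRL library, and siCTRL replicate 2 was well above the rest. HOXD8 fell by 0.42 on the log2 scale (SE 0.108, edgeR quasi-likelihood adjusted p = 0.0347). With 1 library left out, the call held without siCTRL replicate 1 (adjusted p = 0.0437). It was lost without siCTRL replicate 2 (0.077), siCTRL replicate 3 (0.0582), siMatrin3 replicate 1 (0.0937), siMatrin3 replicate 2 (0.0709) or siMatrin3 replicate 3 (0.12), and without siCTRL replicate 2 the fall was 0.31. HOXD3 and HOXD4 had log2 fold changes of −0.25 (SE 0.216) and −0.18 (SE 0.172) at 0.28 to 0.66 TPM. HOXD8 overlaps HOXD-AS2 on the opposite strand, which averaged 0.58 ± 0.0557 TPM in siMatrin3 and 0.623 ± 0.0603 TPM in siCTRL.

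**Figure D3:**
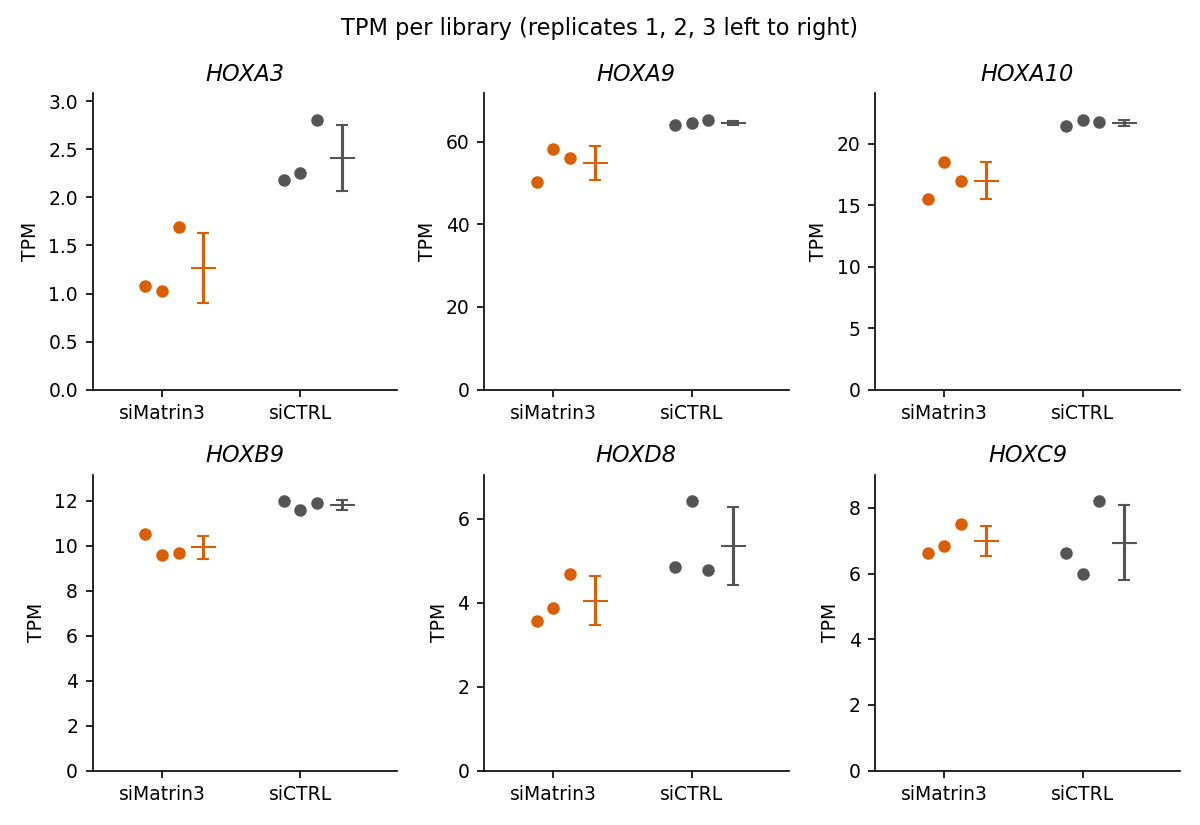
TPM per library of the 5 HOX genes that fell and of HOXC9, siMatrin3 left of siCTRL, with points for replicates 1 to 3 and the mean with its SD beside them on axes that start at 0. The groups are apart in the 5 called genes, as in HOXA9 with 50.3 to 58.3 TPM in siMatrin3 and 64.1 to 65.1 TPM in siCTRL, and overlap in HOXC9.

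Summed over all 39 members, HOX mRNA came to 141.9, 156.8 and 155.5 TPM in siMatrin3 libraries, against 170.8, 174.9 and 180.3 TPM in siCTRL libraries. The sums of the groups did not overlap, and HOXA9 and HOXA10 made up much of them. Without HOXA9 and HOXA10 the sums were 76.2, 80.01 and 82.6 TPM in siMatrin3 and 85.2, 88.6 and 93.4 TPM in siCTRL. Without all 5 called members they were 60.99, 65.5 and 66.5 TPM in siMatrin3 and 66.2, 68.3 and 73.9 TPM in siCTRL, which overlapped. Those 5 were picked by their fall in these same data, so a smaller difference without them was built in. The overlap therefore does not show that the other members were unchanged. The cluster totals were 99.5 ± 7.34 TPM in siMatrin3 and 117.6 ± 1.85 TPM in siCTRL for HOXA, 33.1 ± 0.138 TPM in siMatrin3 and 37.2 ± 1.76 TPM in siCTRL for HOXB, and 5.07 ± 0.619 TPM in siMatrin3 and 6.52 ± 0.864 TPM in siCTRL for HOXD (SD, n = 3 each). No test was run on these sums.

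Position along the cluster gave no simple order among the called genes. Of the members numbered 1 to 8, 2 of 20 tested fell, with a median log2 fold change of −0.19. Of those numbered 9 to 13, 3 of 9 fell, with a median of −0.06. Over all genes tested, 5.97% were called lower. The members that fell among those numbered 9 to 13 were HOXA9, HOXA10 and HOXB9, which had the highest siCTRL levels of all members. Whether position mattered apart from level was not tested. In paralogue group 9, HOXA9 and HOXB9 fell, HOXC9 did not pass the test and HOXD9, at 0.01 to 0.07 TPM in siMatrin3 and 0.01 TPM in siCTRL, was not tested. In paralogue group 10, HOXA10 fell, HOXC10 averaged 1.5 ± 0.532 TPM in siMatrin3 and 1.56 ± 0.462 TPM in siCTRL, and HOXD10 was not tested.

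Several HOX genes have alternative promoters, so the mixture of transcripts could change apart from the total. The transcript length of a gene, averaged over its transcripts with their abundance as weights, was tested with limma in 16 members, those with 2 or more transcripts and no library under 50 expected counts, and 0 changed at an adjusted p under 0.05. Over all genes in that test 0.00823% passed. At an unadjusted p under 0.05 there was 1 member, against 6.32% of all genes. This member was HOXA10, with 1778, 1639 and 1718 bases in siMatrin3 libraries and 1595, 1565 and 1572 bases in siCTRL libraries, and its log2 difference of 0.12 (SE 0.032) had an adjusted p of 0.676. The count of 1 among 16 members was near the share over all genes, so it does not set the HOX genes apart. The lengths of HOXA10 did not overlap between the groups, but how many of all genes did so was not counted. The TPM of HOXA10 differed more than its counts. HOXB9 had the same length in all libraries to within 10 bases.

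The noncoding genes of the clusters, most of them antisense to HOX genes, mostly had negative log2 fold changes, and none passed the edgeR test on counts. Of 18 such genes 11 could be tested with edgeR, 0 rose and 0 fell, and DESeq2 called 0 as well. At an unadjusted p under 0.05 there were 2 lower, HOXA-AS2 and HOXA10-AS, where 13.1% of all genes tested were lower. The log2 fold change was negative in 10 of the 11, against 50.3% of all genes tested, and the median was −0.24. HOXA-AS2, which overlaps HOXA3 and HOXA4, had 0.35, 0.27 and 0.31 TPM in siMatrin3 libraries and 0.71, 0.95 and 0.95 TPM in siCTRL libraries (−0.80 on the log2 scale with an SE of 0.291, adjusted p = 0.11 by edgeR). Its groups did not overlap, and it did pass in edgeR with the length offset (−1.46 on the log2 scale, adjusted p = 0.0259) and in limma on log2(TPM + 1) (adjusted p = 0.0447). These values rest on few reads, with 12 to 18.4 expected counts per library in siMatrin3 and 26 to 29 in siCTRL. The weighted transcript length of HOXA-AS2 also varied, over 1214 to 2081 bases in siMatrin3 and 897 to 1095 bases in siCTRL. HOXA10-AS, which overlaps HOXA9 and HOXA10, had 12.6, 11.2 and 13.3 TPM in siMatrin3 libraries and 13.8, 16.6 and 15.1 TPM in siCTRL libraries (−0.28 on the log2 scale with an SE of 0.092, adjusted p = 0.0833 by edgeR). The kit keeps strand, but with the counting setting not given, antisense and sense reads of these pairs cannot be told apart with certainty. Of 8 tested genes that flank the clusters, SKAP2 beside HOXA fell by 0.27 on the log2 scale (edgeR adjusted p = 0.0177) and SMUG1 beside HOXC rose by 0.39 (edgeR adjusted p = 0.0089), while HIBADH, SKAP1, PRAC2, CALCOCO1, MTX2 and LNPK did not pass.

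Among proteins that bind DNA with HOX proteins, the TALE factors, 1 of 7 tested fell in edgeR and 0 rose, with 1 higher at an unadjusted p under 0.05 and 0 higher in DESeq2. The gene that fell was PBX3, with 2.87, 3.60 and 2.27 TPM in siMatrin3 libraries and 4.61, 3.12 and 3.95 TPM in siCTRL libraries, which overlapped in TPM (−0.50 on the log2 scale with an SE of 0.115, adjusted p = 0.0209 by edgeR, and adjusted p = 0.25 with the length offset). MEIS1, a partner of HOXA9 in leukaemia, was at 0 in all 6 libraries. Of the regulators of HOX clusters, 3 of 27 Polycomb genes rose (EED by 0.19, CBX2 by 0.20 and KDM2B by 0.14 on the log2 scale) and 2 fell, against 5.05% of all tested genes called higher and 5.97% called lower. Those that fell were PHC2, a subunit of the canonical repressive complex, at 87.4 ± 2.43 TPM in siMatrin3 and 110.3 ± 3.94 TPM in siCTRL (edgeR adjusted p = 0.00119), and BMI1, a core subunit of the same complex, at 23.3 ± 2.11 TPM in siMatrin3 and 25.4 ± 1.23 TPM in siCTRL (edgeR adjusted p = 0.0198). DESeq2 called 2 Polycomb genes higher and 2 lower, without EED (DESeq2 adjusted p = 0.0793) and KDM2B (DESeq2 adjusted p = 0.0751) and with RBBP4 (DESeq2 adjusted p = 0.0251). With the length offset in edgeR, PHC2 passed (adjusted p = 0.0076), and EED, CBX2, KDM2B and BMI1 did not (adjusted p = 0.113, 0.146, 0.0771 and 0.399). Of 12 Trithorax and MLL genes tested, 2 rose, MEN1 by 0.20 and WDR5 by 0.19 on the log2 scale, and 0 fell, with 1 lower at an unadjusted p under 0.05 in edgeR and 0 lower in DESeq2. With the length offset in edgeR neither passed (adjusted p = 0.146 for MEN1 and 0.051 for WDR5), and DESeq2 called DOT1L higher as well (DESeq2 adjusted p = 0.0403). Of the caudal, ParaHox and even-skipped genes 0 of 2 passed in edgeR. Of the retinoid receptors, which act upstream of HOX genes in the embryo, 0 of 4 passed in edgeR. None of either list had an unadjusted p under 0.05 in edgeR, and DESeq2 called none. These lists had median log2 fold changes of −0.03 (TALE), 0.02 (Polycomb) and 0.03 (Trithorax and MLL), against −0.00106 for all genes.

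The 5 calls differed in how much they depended on the processing. HOXA3 passed under every count-based alternative and did not pass in limma on log2(TPM + 1), where its adjusted p was 0.119 and 0.805% of all genes passed. None of the 5 changed sign under any of the 18 alternatives. The log2 fold change of HOXA9 ran over −0.24 to −0.18 with adjusted p-values of 0.00241 to 0.23, that of HOXA10 over −0.35 to −0.18 with 0.0133 to 0.147, and that of HOXB9 over −0.29 to −0.20 with 0.00455 to 0.159. HOXD8 passed under 7 of the 18. With the transcript length offset 2 members passed (HOXA3 and HOXA10), beside 2.48% of all genes called lower, and HOXA9 (adjusted p = 0.0601), HOXB9 (0.0641) and HOXD8 (0.185) did not.

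**Figure D4:**
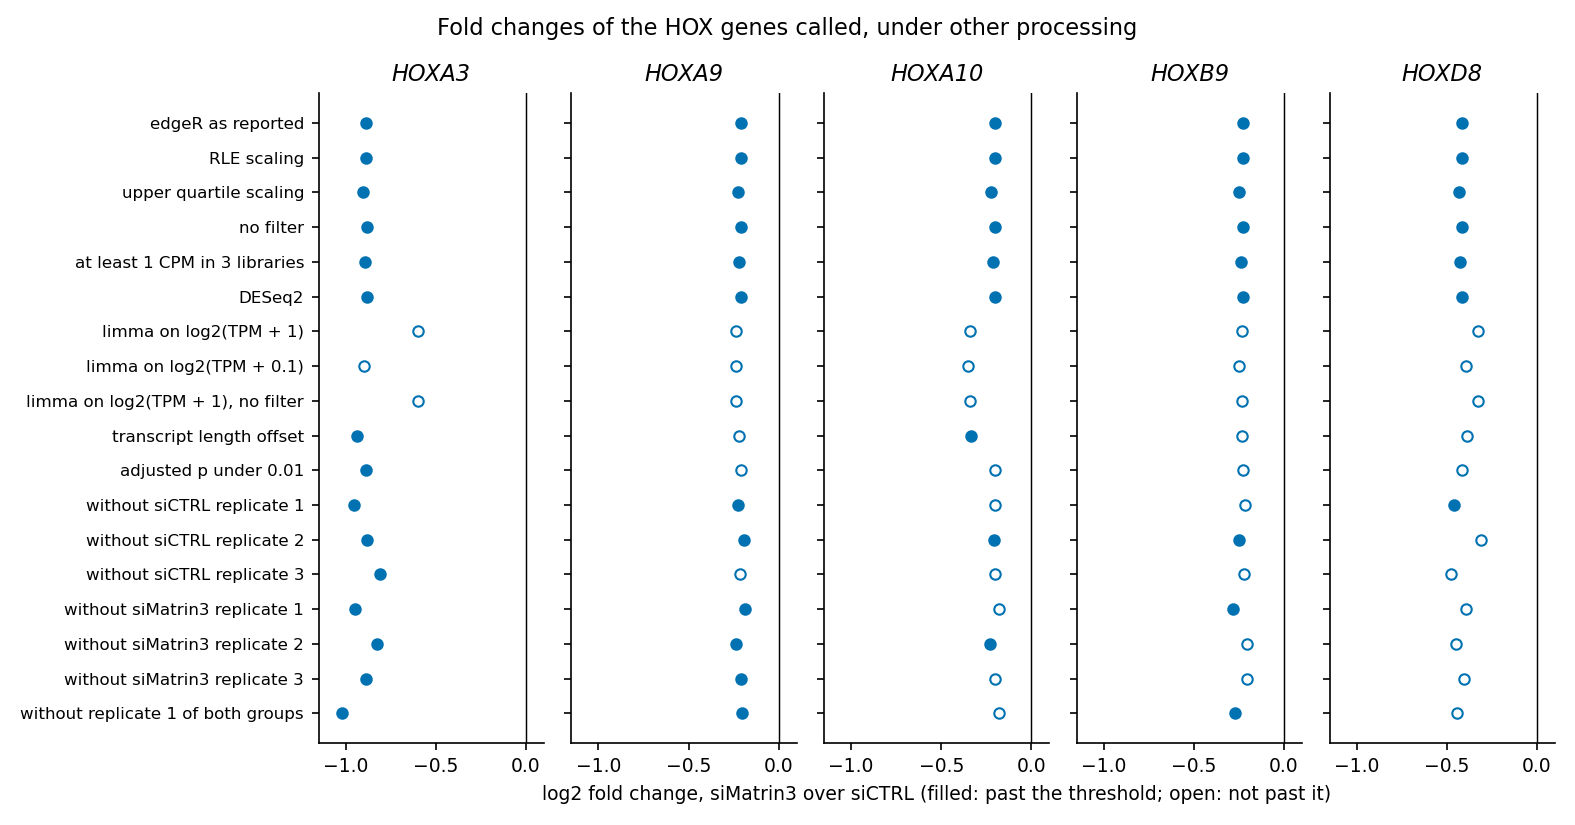
Log2 fold change, siMatrin3 over siCTRL, of the 5 called HOX genes as reported and under other processing, with filled points past the threshold of that setting and open points not past it. All points lie below zero, HOXA3 is open only in the tests on TPM, and HOXD8 is open under most settings that leave out a library.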

How the data were processed

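Poly(A) RNA of HCT116 cells was read from 3 siMatrin3 and 3 siCTRL libraries, grouped by the labels, with a stranded kit and paired reads. The submitters' processing notes name cutadapt, STAR 2.5.1, RSEM and the hg19 build, and the study's methods state a different version of STAR. The authors deposited, per library and gene, expected counts (estimated counts, with shared reads divided by RSEM) and TPM scaled to the same total. The deposited FPKM values were not used. Transcript lengths, weighted by abundance in the authors' RSEM run, were also deposited. Symbols were matched by gene ID in GENCODE release 44 for 88.3% of IDs. That release is on GRCh38, so no coordinates are given, and homeoboxes were found in it by the reading frame that holds the WFQN motif.

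After rounding, the expected counts went through filterByExpr and TMM scaling in edgeR 4.0.16 under R 4.3.3. The quasi-likelihood test was two-sided and had no covariates, and p-values were adjusted by Benjamini-Hochberg over 16786 genes. They set the difference between the groups against how far libraries of the same group differed, with that spread moderated across genes. Differences between cell lines or between siRNAs are not part of that spread. Transcript length was tested with limma 3.58.1 on log2 length. The study used DESeq2, and its version 1.42.0 served as an alternative. The common biological coefficient of variation was 5.98%. The fits were checked on simulated data in which 200 genes had known changes. The values of some members and some sequences are not reported here, and the counts are over all members. Values are given per library for those called or at 5 TPM and above. Members, lists and tests were chosen with earlier results of these data known. PCGF2, KMT2B and PECAM1 had no match. The alternatives changed the scaling (RLE, upper quartile), the filter (none, or 1 CPM in 3 libraries), the test (DESeq2, or limma on TPM with a pseudocount of 1 or 0.1), the threshold (0.01), the length minimum (20 or 100 counts) and the covariates (a replicate block or a length offset), or left out a library. The removal of replicate 1 from both groups was added after the data had been seen.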

Additional observations from a re-analysis of the deposited data

How the results depend on the processing

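The count of HOX genes called lower in siMatrin3 was 5 in the edgeR test, 5 with RLE scaling, no filter, the stricter filter and DESeq2, and 6 with upper quartile scaling. It was 0 in the 3 limma tests on TPM, 2 with the length offset, 1 at an adjusted p under 0.01, 1 to 4 when a library was left out (1 without siCTRL replicate 3, 2 without siMatrin3 replicate 3) and 3 without replicate 1 of both groups. Calls among all genes fell as well, with 1849 in the edgeR test, 561 at an adjusted p under 0.01, 770 without siCTRL replicate 3, 759 without siMatrin3 replicate 3, 706 with the length offset and 65 to 215 in the limma tests. The cause of these differences was not tested, apart from fewer libraries and a stricter threshold by construction. No alternative called a HOX gene higher or called a change in transcript length. HOXA11 was at −0.00536 with upper quartile scaling, −0.00431 in limma on log2(TPM + 1) with and without the filter and −0.00498 on log2(TPM + 0.1), against 0.01 in edgeR. HOXC9 was at 0.0183 in limma on log2(TPM + 1) with and without the filter, 0.0217 on log2(TPM + 0.1), 0.0295 with the length offset, 0.044 without siCTRL replicate 3, 0.00723 without siMatrin3 replicate 1 and 0.00809 without replicate 1 of both groups, against −0.02, and with a single library left out it ranged over −0.0750 to 0.044. HOXA7 was at 0.0594 without siMatrin3 replicate 1 and 0.0605 without replicate 1 of both groups, against −0.02, with a range of −0.0825 to 0.0594 over single libraries left out. The siCTRL sum of 175.3 TPM was 172.8 to 177.6 with a library left out. With the replicate number as a block 5 HOX genes were called, the same 5, and 2716 genes in all, against 1849 without it. Same-numbered libraries did not all deviate together (correlations of 0.18, 0.09 and 7.2e-05). Those numbered 1 and 2 correlated best with their own number in the other group, whereas those numbered 3 correlated best with number 2. The numbers were therefore not taken to pair the libraries, although pairing was not excluded. With 3 libraries a group, genes near 1 TPM had few counts, and 10 members could not be tested.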
